A study of Homo sapiens with 6 samples.

Results

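The genes described here encode 49 proteins of the Polycomb, Trithorax and SWI/SNF complexes, which set or remove marks on chromatin or move nucleosomes. They were chosen by symbol, as subunits of these complexes, with earlier results of these data known, and matched to the counts by Ensembl identifier. All 49 were among the 60483 genes listed, and all 49 passed the filter on low counts, which left 16198 genes to test. RNA-seq was done on A2780, an ovarian carcinoma cell line, with 3 libraries of WT cells and 3 libraries of CDK12 KO cells. CDK12 is a kinase that phosphorylates RNA polymerase II. The KO cells are 1 clone, obtained with CRISPR/Cas9 directed against exon 1 of CDK12, and the labels name no drug treatment for either group. By the study's account, the KO clone carries the duplicated chromosomes of A2780, but its composite karyotype also lists gains and losses of individual chromosomes. Loss of CDK12, the choice of a clone and the changes in chromosome number therefore cannot be told apart. The labels do not say that the libraries of a group came from separate cultures, so p-values measure only the spread between these libraries, which may be technical.

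Polycomb and Trithorax proteins were first found in the fruit fly as opposing regulators that keep developmental genes silent or active through cell division. Polycomb repressive complex 2 (PRC2) methylates histone H3 at lysine 27, Polycomb repressive complex 1 (PRC1) ubiquitinates histone H2A and compacts chromatin, and the BAP1 deubiquitinase complex (PR-DUB) removes the mark on H2A. The Trithorax side is formed by methyltransferases of histone H3 lysine 4, demethylases of histone H3 lysine 27 and the SWI/SNF remodelers, ATP-driven machines many of whose subunits are mutated or silenced in ovarian and other carcinomas.

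Total counts ranged from 11098400 in WT replicate 3 to 30899045 in WT replicate 2, so 3 counts corresponded to at most 0.270 CPM, the unit used here for counts scaled by TMM to a common library total. This floor covers counting error only. The summed level of the 49 genes was 4238 to 4495 CPM in WT and 4350 to 4422 CPM in KO. CDK12 itself was at 103, 125 and 117 CPM in the WT libraries and 99.0, 93.0 and 102 CPM in the KO libraries, a log2 fold change of -0.23 (edgeR adjusted p = 8.20e-04). A count for the whole gene holds edited and unedited transcripts alike. The line's tissue markers were weak. Of 6 epithelial markers, 5 were above the floor in some library, with a summed level of 68.1 to 73.7 CPM in WT and 114 to 119 CPM in KO, while the ovarian markers PAX8, WT1, MUC16 and EMX2 summed to at most 0.401 CPM in any library. Of 5 fibroblast markers, COL1A1 and COL1A2 held nearly all of a sum of 5147 to 5278 CPM in WT and 2679 to 2813 CPM in KO, with DCN and LUM at 0 in KO. CDH1 and KRT7 were near 0 in both groups, and most of the epithelial sum was KRT18. The epithelial markers did not all rise: KRT8 and KRT18 were higher in KO (log2 fold changes 0.56 and 0.78), but EPCAM was lower. EPCAM was at 3.90, 2.34 and 3.33 CPM in WT and 2.20, 2.12 and 2.19 CPM in KO (log2 fold change -0.53, edgeR adjusted p = 0.0119). The 5 leukocyte, 4 endothelial and 3 erythroid markers summed to less than 1 CPM each. The part of these marker levels in the results was not tested, and in bulk RNA, fewer cells of a type and less RNA per cell cannot be told apart.

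Most of the 49 genes differed between KO and WT cells, by small amounts and in both directions. At an adjusted p under 0.05 (edgeR's quasi-likelihood test, adjusted by Benjamini-Hochberg over all tested genes), 16 were higher in KO (background 31.9%), 20 were lower (background 32.0%) and 13 were not called. That is 73.5% of the members, against 63.9% of all tested genes. With the fold threshold of the study added, a log2 fold change above 1 or below -1, only SMARCA2 was up-regulated (background 8.3%) and no member was down-regulated (background 7.73%). With voom/limma or DESeq2 in place of edgeR, or with unadjusted p-values, 0 members were down-regulated as well. Log2 fold changes of the members ranged from -0.72 to 6.56 with a median of -0.07, against 0.00 over all tested genes. The size of the change, whatever its sign, had a median of 0.197 on the log2 scale among the members and 0.317 among all tested genes, and it passed 0.5 in 7 of the 49 members (14.3%) and in 33.8% of all tested genes. The members also drew more reads than most genes, with a median of 73.7 CPM against 21.1 CPM. In 36 members the 3 KO libraries did not overlap the 3 WT libraries, 15 above (background 32.8%) and 21 below (background 33.5%), against 66.4% of all tested genes in either direction.

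**Figure D1:**
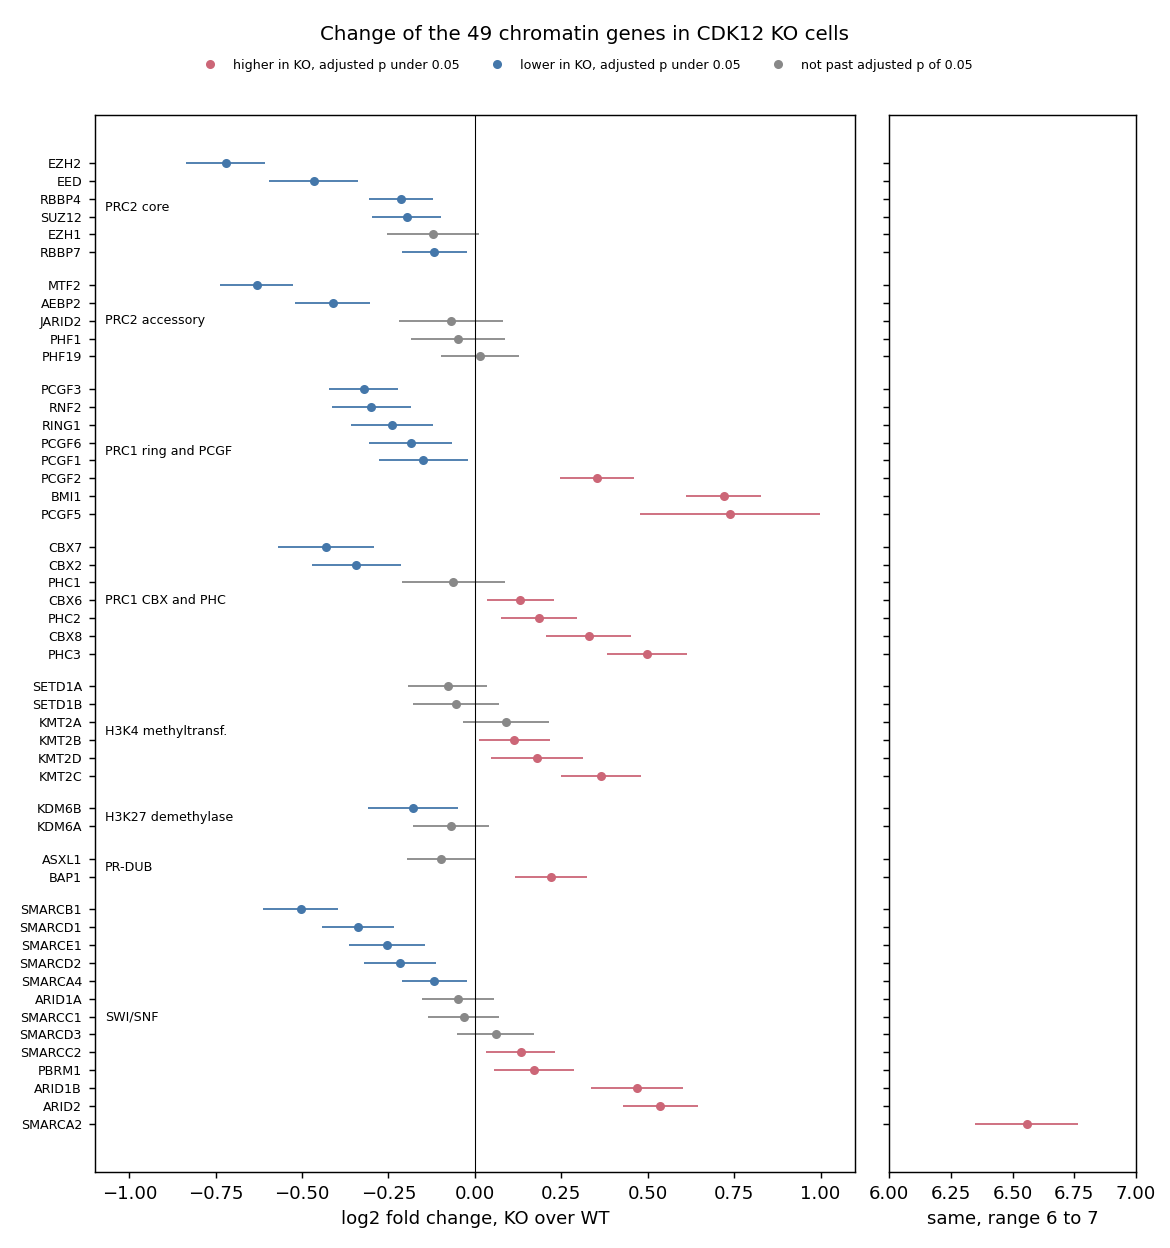
Log2 fold change of KO over WT for the 49 genes, grouped by complex, from edgeR; points are estimates, bars are 95% confidence intervals and colours mark genes higher, lower or not called at an adjusted p under 0.05. SMARCA2, at 6.56, is drawn in the right panel, whose axis runs from 6 to 7, and all other genes lie between -0.72 and 0.74.

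The largest difference by far was in SWI/SNF, where SMARCA2 RNA, near the floor in WT cells, was abundant in the KO clone. SMARCA2 encodes BRM, one of the mutually exclusive ATPases that drive the complex. The 3 WT libraries held 23, 27 and 9 of its reads and the 3 KO libraries held 2059, 2117 and 1468, which is 0.839, 0.901 and 0.81 CPM against 83.8, 78.6 and 82.5 CPM. Every KO library lay far above every WT library, and the libraries of each group were close to each other. The mean rose from 0.85 ± 0.0463 CPM to 81.6 ± 2.68 CPM (SD, n = 3 each). The edgeR estimate was 94.1-fold, a log2 fold change of 6.56 (SE 0.102, 95% confidence interval 6.35 to 6.76, edgeR adjusted p = 3.33e-32). Of the 16198 tested genes, 49 (0.303%) had a larger log2 fold change. The WT counts were above the floor of 3 in each library, so the ratio is an estimate and not a bound.

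SMARCA2 (ENSG00000080503) lies on the plus strand of GRCh38 at chr9:1980290-2193624, and its reference transcript has 34 exons and 5748 bases. The genes around it moved in both directions, and 5 of the 10 nearest tested genes were also called higher (background 31.9%). Among the 5 nearest tested genes on each side, the log2 fold change was 1.29 for VLDLR and 0.70 for its antisense neighbour VLDLR-AS1, -2.44 for DOCK8, -0.36 for KANK1 and -0.33 for PUM3. The remaining ones were RFX3 at 0.18, RFX3-DT at 0.97, RPL12P25 at 0.82, WASHC1 at -0.06 and ZNG1A at 0.18. The median of these 10 was 0.18, and that of the 640 tested genes of chromosome 9 was -0.06.

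SMARCA4, which encodes the alternative ATPase BRG1, was at 322, 344 and 329 CPM in the WT libraries and 307, 304 and 306 CPM in the KO libraries. The groups did not overlap but lay close together. Its log2 fold change was -0.12 with an adjusted p of 0.0256 in edgeR, a call that was lost in 6 of 12 alternatives, among them those without WT replicate 2, KO replicate 1 or KO replicate 3 (adjusted p between 0.0628 and 0.0951). Per length of the reference transcript, SMARCA2 was at 0.148 CPM per kb in WT and 14.2 CPM per kb in KO. As a share of the per-length level of both ATPase genes, SMARCA2 made up 0.248% ± 0.00826 in WT and 20.6% ± 0.463 in KO (SD, n = 3 each), so SMARCA4 remained the more abundant of both in every library.

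The other 11 SWI/SNF members moved by at most 0.54 on the log2 scale. Among the ARID subunits, which separate the BAF and PBAF forms, ARID2 and ARID1B rose. ARID2, the subunit that marks PBAF, was at 63.8, 68.3 and 62.0 CPM in WT and 95.4, 90.0 and 97.4 CPM in KO, with separate groups and a log2 fold change of 0.54 (SE 0.0534, edgeR adjusted p = 2.03e-10). ARID1B, a paralog of ARID1A in BAF, was at 24.1, 24.9 and 23.5 CPM in WT and 31.8, 34.0 and 35.2 CPM in KO, a log2 fold change of 0.47 (SE 0.0653, edgeR adjusted p = 1.90e-07). ARID1A itself, often mutated in clear cell and endometrioid ovarian carcinoma, was at 129, 147 and 137 CPM in WT and 132, 131 and 136 CPM in KO, and its groups overlapped (log2 fold change -0.05, edgeR adjusted p = 0.407). PBRM1, the bromodomain subunit of PBAF, passed the test with overlapping groups, at 67.6, 77.6 and 70.1 CPM in WT and 83.4, 76.3 and 83.7 CPM in KO (log2 fold change 0.17, edgeR adjusted p = 0.00961). Its edgeR adjusted p was 0.0927 without WT replicate 1 and 0.0589 without KO replicate 1. PBRM1 lies on chromosome 3, where the median over 876 tested genes was 0.25, while its 10 nearest tested genes had a median of 0.003.

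Among the core subunits, SMARCB1 fell most. SMARCB1, the SNF5 subunit lost in rhabdoid tumours, was at 84.2, 88.1 and 82.3 CPM in the WT libraries and 57.5, 63.2 and 59.1 CPM in the KO libraries. The groups did not overlap, and the mean went from 84.9 ± 2.94 to 59.9 ± 2.93 CPM (SD, n = 3 each), which gives a log2 fold change of -0.50 (SE 0.0535, edgeR adjusted p = 8.07e-10). The 10 nearest tested genes of SMARCB1 had a median of 0.04, and 1 of them was called in the same direction (background 32.0%). SMARCD1, a BAF60 subunit that links the complex to transcription factors, was at 87.7, 94.4 and 89.1 CPM in WT and 71.3, 73.3 and 70.0 CPM in KO, also with separate groups (log2 fold change -0.34, edgeR adjusted p = 8.59e-07). Its paralog SMARCD2 was also lower without overlap, at 143, 135 and 125 CPM in WT and 114, 117 and 117 CPM in KO (log2 fold change -0.22, edgeR adjusted p = 4.15e-04), while SMARCD3 was at 83.9, 81.2 and 88.1 CPM in WT and 83.1, 94.1 and 85.3 CPM in KO, with overlapping groups and an edgeR adjusted p of 0.342.

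The scaffold genes moved little. SMARCC1 (BAF155) was at 223, 253 and 227 CPM in WT and 230.2, 222 and 236 CPM in KO, and the groups overlapped (edgeR adjusted p = 0.596). SMARCC2 (BAF170), the other scaffold, was at 114, 117 and 115 CPM in WT and 121, 129 and 129 CPM in KO, a log2 fold change of 0.13 (edgeR adjusted p = 0.0179). The latter call was lost without WT replicate 1, WT replicate 3 or KO replicate 3, with adjusted p-values between 0.0541 and 0.0689. SMARCE1 (BAF57) was at 69.6, 70.6 and 67.3 CPM in WT and 60.1, 54.9 and 59.6 CPM in KO (log2 fold change -0.25, edgeR adjusted p = 1.30e-04). Of the exon bases of its reference transcript, 51.5% are shared with another annotated gene on the same strand. How reads that match both genes were counted is not given in the sources used here, so the value of SMARCE1 is uncertain. In all, 5 SWI/SNF members were higher, 5 were lower and 3 were not called (background 31.9% higher and 32.0% lower), with a median of -0.03.

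**Figure D2:**
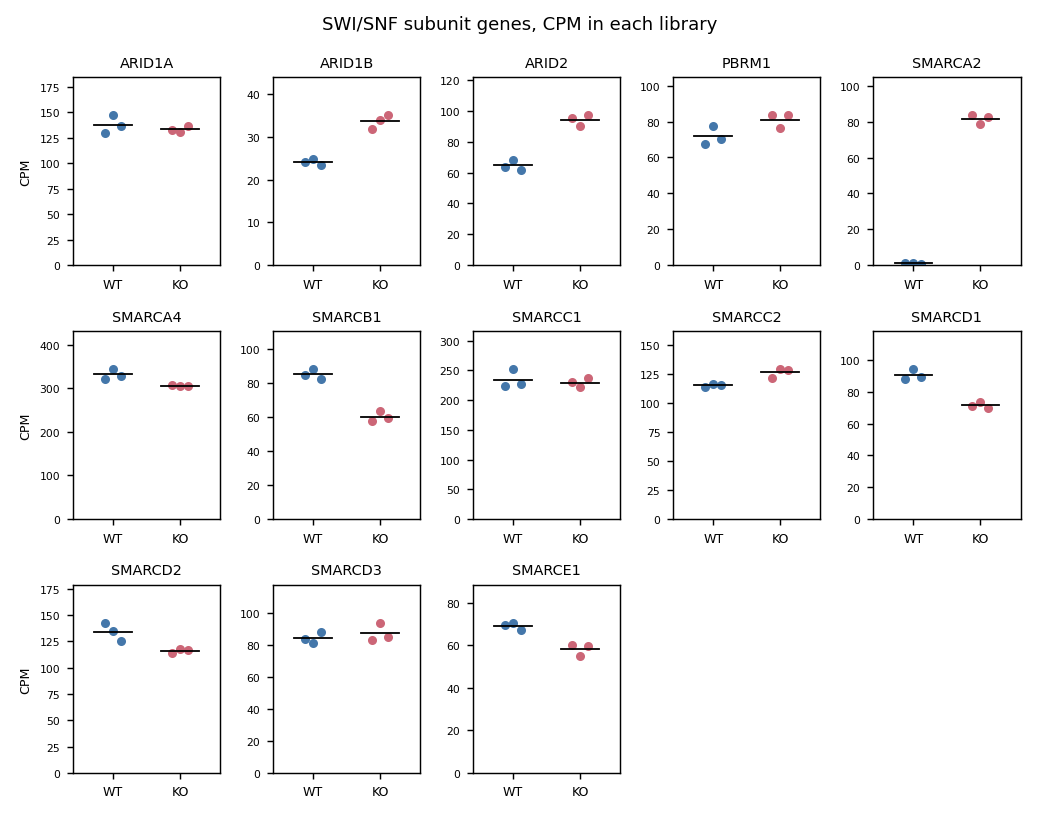
Level of the 13 SWI/SNF genes in CPM (linear axes from 0, each with its own scale), with 1 point per library and a line at the mean of each group of 3. SMARCA2 goes from below 1 CPM in WT to 78.6 to 83.8 CPM in KO, ARID1B and ARID2 are higher in every KO library, and SMARCB1 and SMARCD1 are lower in every KO library.

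PRC2 genes were lower in KO or did not pass the test, and 0 were higher, also with unadjusted p-values and with voom/limma or DESeq2. Of the 6 core genes 5 were lower and 1 was not called, with a median log2 fold change of -0.21, and of the 5 accessory genes 2 were lower and 3 were not called, with a median of -0.07. Over all tested genes 31.9% were higher and 32.0% were lower, so the share of lower genes among the accessory genes is near the background. EZH2, the main methyltransferase of the complex, is at chr7:148807257-148884321. It was at 62.7, 67.2 and 67.2 CPM in the WT libraries and 39.8, 40.7 and 38.7 CPM in the KO libraries. The groups were well apart, and the mean fell 1.65-fold, from 65.7 ± 2.57 to 39.7 ± 1.00 CPM (SD, n = 3 each), the lowest log2 fold change of the 49 members at -0.72 (SE 0.0558, edgeR adjusted p = 5.28e-13). Lower values were found in 10.7% of all tested genes. The 10 tested genes nearest to EZH2 had a median of -0.10. EZH1, the paralog that acts mainly in cells that do not divide, was at 32.3, 28.8 and 30.7 CPM in WT and 27.2, 28.3 and 28.9 CPM in KO, with overlapping groups (log2 fold change -0.12, edgeR adjusted p = 0.109, and 0.0339 without WT replicate 2).

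EED, the subunit that reads the methyl mark and stimulates the enzyme, was at 41.3, 46.2 and 42.2 CPM in WT and 30.2, 33.1 and 30.8 CPM in KO. All KO libraries were below all WT libraries, with a log2 fold change of -0.47 (SE 0.063, edgeR adjusted p = 1.14e-07). However, 7 of the 10 neighbours of EED on chromosome 11 were also lower (background 32.0%), and the median of the 10 was -0.42. SUZ12, the scaffold, was at 135, 135 and 143 CPM in WT and 124, 115 and 122 CPM in KO (log2 fold change -0.20, edgeR adjusted p = 7.95e-04). Its pseudogene SUZ12P1 held counts equal to 13.9% of its own, so reads may be split between them. The histone chaperones RBBP4 and RBBP7, which PRC2 shares with other complexes, were also lower. RBBP4 was at 254, 250.2 and 249.6 CPM in WT and 217, 214 and 219.5 CPM in KO (log2 fold change -0.21, edgeR adjusted p = 1.32e-04). RBBP7 was at 195, 198 and 199.9 CPM in WT and 183, 184 and 179 CPM in KO (log2 fold change -0.12, edgeR adjusted p = 0.0264), a call that was lost in 6 of 12 alternatives, among them those without WT replicate 3, KO replicate 1 or KO replicate 3 (adjusted p between 0.0639 and 0.105).

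Among the accessory genes, MTF2 and AEBP2 were lower. MTF2, a Polycomb-like protein that brings PRC2 to unmethylated CpG islands, was at 89.1, 84.5 and 86.5 CPM in WT and 55.5, 55.9 and 56.6 CPM in KO, with KO libraries that lay close to each other. Its mean went from 86.7 ± 2.33 to 56.0 ± 0.558 CPM (SD, n = 3 each), which gives a log2 fold change of -0.63 (SE 0.0515, edgeR adjusted p = 1.90e-12), with a median of -0.34 among its 10 neighbours. AEBP2, a zinc finger cofactor, was at 70.1, 70.4 and 75.3 CPM in WT and 54.4, 52.5 and 54.7 CPM in KO (log2 fold change -0.41, SE 0.0534, edgeR adjusted p = 4.99e-08). It lies in a stretch of chromosome 12 in which 7 of the 10 nearest tested genes were lower (background 32.0%). The median of these 10 was -1.99, with MGST1 at -8.76 and PLEKHA5 at -0.89. The other Polycomb-like genes and JARID2 were not called. PHF19 was at 59.6, 62.0 and 59.0 CPM in WT and 57.2, 64.5 and 61.2 CPM in KO (log2 fold change 0.02), and PHF1 was at 44.6, 42.5 and 50.2 CPM in WT and 43.4, 47.6 and 39.6 CPM in KO (log2 fold change -0.05). JARID2, which helps to recruit the complex, was at 30.9, 32.5 and 36.6 CPM in WT and 33.0, 27.6 and 34.1 CPM in KO (log2 fold change -0.07). The groups of all 3 overlapped, with edgeR adjusted p-values of 0.824 for PHF19, 0.544 for PHF1 and 0.433 for JARID2.

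**Figure D3:**
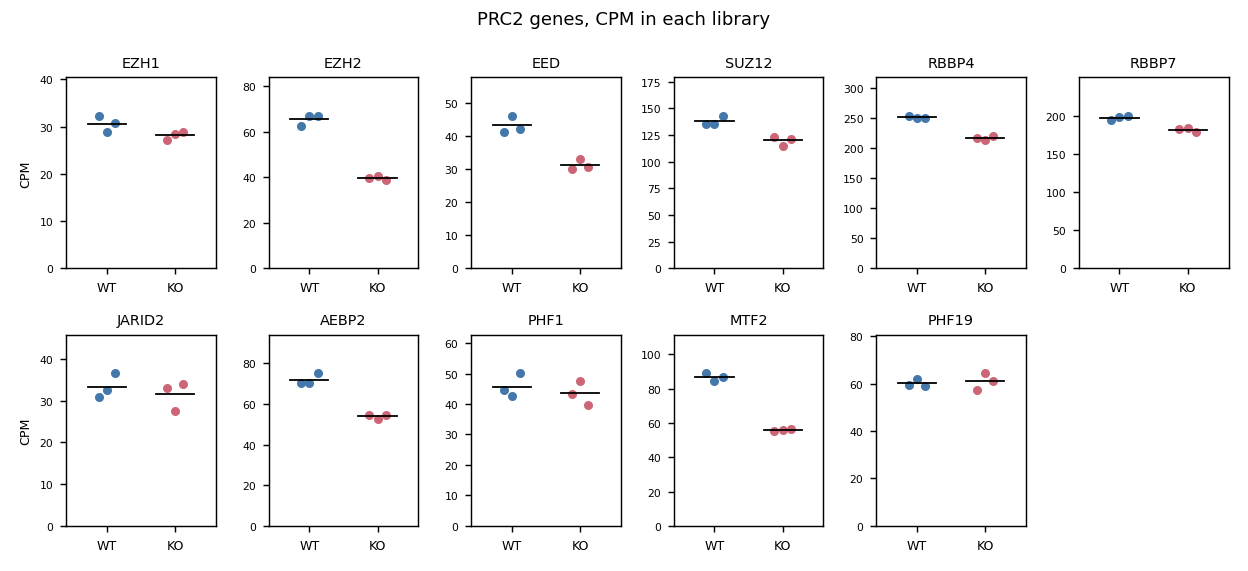
Level of the 11 PRC2 genes in CPM (linear axes from 0, each with its own scale), with 1 point per library and a line at the mean of each group of 3. EZH2, EED, AEBP2 and MTF2 are lower in every KO library, whereas the groups overlap for EZH1, JARID2, PHF1 and PHF19.

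Of the 7 PRC2 genes that were lower in KO, 4 had an entry in the promoter table, and these promoters are shown whether or not they hold a motif. The table is RefSeq's (GRCh38.p14, 250 bases before to 50 after the start) and held 25 of the 49 members, and the windows below are on the plus strand, 5′ to 3′. Capitals mark CCAAT, the motif of the factor NF-Y, and TTTCCCGC, a form of the E2F motif found at cell cycle genes, searched on both strands, so that a match on the other strand reads ATTGG or GCGGGAAA. These 2 motifs do not overlap each other here.
MTF2 promoter, chr1:93079033-93079332: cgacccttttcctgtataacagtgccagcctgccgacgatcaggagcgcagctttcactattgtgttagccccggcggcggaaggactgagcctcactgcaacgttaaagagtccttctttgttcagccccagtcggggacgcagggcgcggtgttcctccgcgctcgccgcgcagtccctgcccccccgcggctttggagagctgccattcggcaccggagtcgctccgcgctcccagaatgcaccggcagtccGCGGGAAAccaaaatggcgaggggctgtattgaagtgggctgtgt
EED promoter, chr11:86244503-86244802: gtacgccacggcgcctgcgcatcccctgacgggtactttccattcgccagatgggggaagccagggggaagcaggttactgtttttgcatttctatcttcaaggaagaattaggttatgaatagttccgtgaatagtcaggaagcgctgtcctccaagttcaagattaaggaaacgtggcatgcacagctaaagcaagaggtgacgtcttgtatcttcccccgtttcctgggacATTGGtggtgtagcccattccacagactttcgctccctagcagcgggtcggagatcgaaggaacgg
SUZ12 promoter, chr17:31936757-31937056: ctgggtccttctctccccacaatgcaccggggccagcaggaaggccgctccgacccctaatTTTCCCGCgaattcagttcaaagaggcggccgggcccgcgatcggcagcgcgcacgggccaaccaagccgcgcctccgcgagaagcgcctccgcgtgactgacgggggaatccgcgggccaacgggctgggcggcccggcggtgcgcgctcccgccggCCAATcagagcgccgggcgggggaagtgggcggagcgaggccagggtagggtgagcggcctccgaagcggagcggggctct
AEBP2 promoter, chr12:19440349-19440648: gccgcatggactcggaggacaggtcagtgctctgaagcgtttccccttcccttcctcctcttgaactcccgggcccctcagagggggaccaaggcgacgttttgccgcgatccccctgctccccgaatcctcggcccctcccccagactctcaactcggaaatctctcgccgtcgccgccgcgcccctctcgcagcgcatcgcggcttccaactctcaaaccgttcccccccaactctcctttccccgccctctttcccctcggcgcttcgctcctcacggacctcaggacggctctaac
TTTCCCGC was found in 2 of the 25 promoters, those of MTF2 and SUZ12, and in 1.63% of all 35116 promoters of this length. The internal window of AEBP2 held neither of the marked motifs. CCAAT was found in 7 of the 25, EED and SUZ12 among them, and in 34.6% of all promoters. GGGCGG, the GC box, was found in 21 of the 25 and in 45.0% of all, TATAAA in 1 and in 11.5%, and TTTGGCGC in 0 and in 0.652%. The promoters of the members held a median of 30 CpG pairs, against 14 over all promoters, and those of EED, MTF2, SUZ12 and AEBP2 held 16, 28, 40 and 28. A match to these letters is a description and does not show binding.

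PRC1 genes moved in both directions, and all 8 genes of its RING and PCGF core were called, 3 higher and 5 lower, against 63.9% called over all tested genes (31.9% higher and 32.0% lower). The ligase genes were lower: RNF2 (RING1B), the main H2A ligase, was at 70.5, 71.1 and 67.8 CPM in WT and 56.6, 53.3 and 61.2 CPM in KO (log2 fold change -0.30, edgeR adjusted p = 2.21e-05). RING1, its paralog, was at 39.7, 40.3 and 40.5 CPM in WT and 34.3, 34.0 and 33.6 CPM in KO (log2 fold change -0.24, edgeR adjusted p = 6.39e-04). Both ligase genes had groups that did not overlap.

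The PCGF genes decide which form of PRC1 is built, and 3 of them rose while 3 fell. BMI1 (PCGF4), which with PCGF2 defines the canonical form, was at 58.5, 64.6 and 66.5 CPM in the WT libraries and 106, 102 and 103 CPM in the KO libraries. Each KO library was above each WT library, and the mean rose from 63.2 ± 4.22 to 104 ± 1.85 CPM (SD, n = 3 each). The edgeR estimate was 1.65-fold, a log2 fold change of 0.72 (SE 0.0537, edgeR adjusted p = 2.13e-13). BMI1 lies at chr10:22321099-22331484, where a readthrough gene, COMMD3-BMI1, covers 28.2% of the exon bases of its reference transcript; that gene was listed at 0 counts in all libraries, and how reads that match both genes were counted is not given in the sources used here. COMMD3, the gene upstream of it, had a log2 fold change of 0.45, and the median of the 10 neighbours was 0.07.

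PCGF5, of a variant form of PRC1, had the fewest reads of the 49 genes over the 6 libraries together (in WT alone SMARCA2 had fewer), at 4.16, 3.70 and 4.59 CPM in WT and 7.49, 6.13 and 6.69 CPM in KO. Its groups were separate, with a log2 fold change of 0.74 and a standard error of 0.128 (edgeR adjusted p = 7.36e-06). PCGF2 (MEL18) was at 87.9, 82.4 and 85.7 CPM in WT and 103, 109 and 116 CPM in KO (log2 fold change 0.35, edgeR adjusted p = 6.23e-07). PCGF3, whose complex is closely related to that of PCGF5, was lower, at 104, 105 and 101 CPM in WT and 84.2, 81.5 and 82.9 CPM in KO (log2 fold change -0.32, edgeR adjusted p = 9.72e-07). PCGF6, found with E2F6 and MGA, was at 37.4, 37.8 and 37.6 CPM in WT and 33.7, 32.8 and 32.7 CPM in KO (log2 fold change -0.19, edgeR adjusted p = 0.00704). PCGF1, of the form that holds BCOR, was at 35.1, 34.0 and 32.1 CPM in WT and 29.1, 31.8 and 31.0 CPM in KO (log2 fold change -0.15, edgeR adjusted p = 0.0399), a call that was lost in 8 of 12 alternatives, among them those without WT replicate 1, WT replicate 2, KO replicate 1 or KO replicate 3 (adjusted p between 0.0631 and 0.193). The 10 tested genes nearest to PCGF1 had a median of -0.35, and 7 of them were also lower (background 32.0%).

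Of the 7 CBX and PHC genes, 4 were higher, 2 were lower and 1 was not called (background 31.9% higher and 32.0% lower), with a median of 0.13. The CBX proteins are the chromodomain readers that bind methylated H3 lysine 27 within canonical PRC1. CBX7 was at 27.3, 27.1 and 29.5 CPM in WT and 21.2, 20.7 and 19.8 CPM in KO (log2 fold change -0.43, SE 0.0683, edgeR adjusted p = 1.91e-06), and CBX2 was at 77.7, 93.4 and 91.4 CPM in WT and 65.9, 74.8 and 65.1 CPM in KO (log2 fold change -0.34, edgeR adjusted p = 1.74e-05). Both were lower without overlap. CBX8, which lies beside CBX2 on chromosome 17, was higher, at 47.7, 40.8 and 44.5 CPM in WT and 53.5, 57.0 and 56.5 CPM in KO (log2 fold change 0.33, edgeR adjusted p = 1.71e-05). CBX6 was at 199.9, 217 and 217 CPM in WT and 235, 231 and 227 CPM in KO (log2 fold change 0.13, edgeR adjusted p = 0.0173), and its call was lost without WT replicate 1 or KO replicate 1 (adjusted p = 0.133 and 0.0821).

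The PHC genes encode the polyhomeotic subunits whose SAM domains join into chains. PHC3 was at 90.9, 103 and 109 CPM in WT and 145, 133 and 148 CPM in KO, with separate groups (log2 fold change 0.50, SE 0.0568, edgeR adjusted p = 3.98e-09). It lies on chromosome 3, where the median over 876 tested genes was 0.25. PHC2 was at 75.3, 82.6 and 74.7 CPM in WT and 87.0, 93.3 and 84.8 CPM in KO (log2 fold change 0.19, edgeR adjusted p = 0.00343). PHC1 was at 23.3, 24.5 and 20.0 CPM in WT and 22.5, 21.4 and 22.4 CPM in KO with overlapping groups (log2 fold change -0.06, edgeR adjusted p = 0.47), and its pseudogene PHC1P1 held counts equal to 6.12% of its own.

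**Figure D4:**
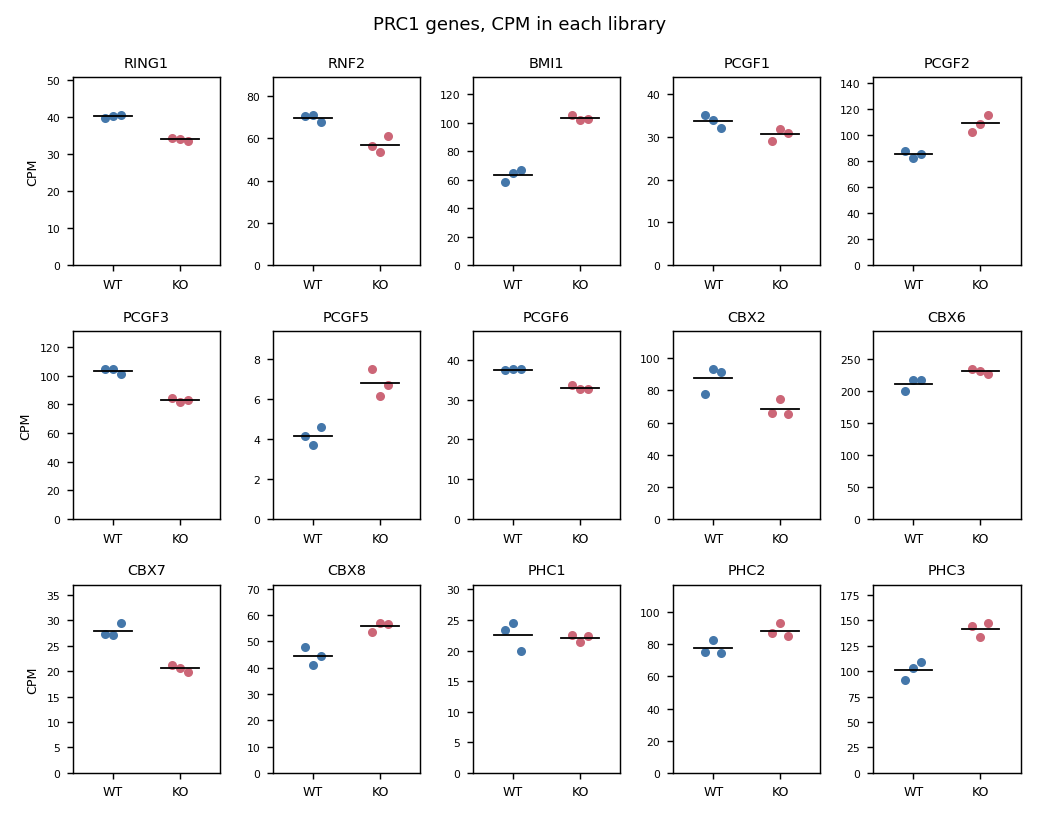
Level of the 15 PRC1 genes in CPM (linear axes from 0, each with its own scale), with 1 point per library and a line at the mean of each group of 3. BMI1, PCGF5, PCGF2, CBX8 and PHC3 are higher in every KO library, and RNF2, RING1, PCGF3, CBX2 and CBX7 are lower in every KO library.

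The H3K4 methyltransferase genes were higher (3 of 6, against a background of 31.9%) or not called, with a median of 0.10, and with DESeq2 the number higher was 1. In edgeR, voom/limma and DESeq2 0 were lower, also with unadjusted p-values (background 32.0% lower in edgeR at an adjusted p under 0.05). KMT2C (MLL3), which marks enhancers, changed most, from 59.3, 67.4 and 66.7 CPM in the WT libraries to 84.2, 78.5 and 86.0 CPM in the KO libraries. Its groups were separate, with a log2 fold change of 0.36 (SE 0.0565, edgeR adjusted p = 1.26e-06). Its paralog KMT2D (MLL4) was at 128, 170.2 and 162 CPM in WT and 171, 171 and 178 CPM in KO (log2 fold change 0.18, edgeR adjusted p = 0.0161). WT replicate 1 was low for KMT2D, and without that library the log2 fold change was 0.05 and not called (adjusted p = 0.384); without KO replicate 3 the adjusted p was 0.0630, and in DESeq2 with all libraries it was 0.293. KMT2B, a promoter-bound enzyme, was at 95.1, 103 and 102 CPM in WT and 106, 111 and 107 CPM in KO (log2 fold change 0.11, edgeR adjusted p = 0.0484), a call lost in 7 of 12 alternatives, among them every fit that left out a library except WT replicate 2 (adjusted p between 0.0734 and 0.269).

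The 3 other methyltransferase genes were not called. KMT2A (MLL1), rearranged in acute leukaemia, was at 136, 169 and 149 CPM in WT and 162, 149 and 173 CPM in KO (log2 fold change 0.09, edgeR adjusted p = 0.199). SETD1A and SETD1B, which place most of the trimethyl mark at promoters, had log2 fold changes of -0.08 and -0.05. SETD1A was at 63.4, 73.5 and 70.1 CPM in WT and 65.3, 65.3 and 65.1 CPM in KO, and SETD1B was at 32.6, 34.5 and 34.0 CPM in WT and 32.8, 31.6 and 33.1 CPM in KO. The groups overlapped for all 3 genes. KMT2A was called without WT replicate 2 (adjusted p = 0.00986), and SETD1A was called as lower without WT replicate 1 (adjusted p = 0.0244).

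The H3K27 demethylase genes, whose enzymes undo the work of EZH2, changed little. KDM6A (UTX), a subunit of the complexes of KMT2C and KMT2D, was at 68.3, 70.6 and 64.2 CPM in WT and 66.0, 62.3 and 66.5 CPM in KO, with overlapping groups (log2 fold change -0.07, edgeR adjusted p = 0.267). KDM6B (JMJD3), an inducible demethylase, was at 36.0, 34.7 and 38.5 CPM in WT and 32.2, 30.2 and 33.6 CPM in KO (log2 fold change -0.18, edgeR adjusted p = 0.0148, but 0.0649 without WT replicate 3 and 0.0831 without KO replicate 2). In PR-DUB, BAP1, the deubiquitinase and a tumour suppressor, was at 106, 115 and 107 CPM in WT and 122, 133 and 127 CPM in KO, a log2 fold change of 0.22 (edgeR adjusted p = 3.40e-04) on chromosome 3, where the median was 0.25. ASXL1, its cofactor, was at 107, 112 and 109.9 CPM in WT and 101, 105 and 102 CPM in KO. The groups were separate, but the log2 fold change of -0.10 was not called (edgeR adjusted p = 0.0807). The 10 tested genes nearest to ASXL1 had a median of -0.42, and 8 of them were called lower (background 32.0%).

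Many of these subunits, though not all, are alternatives for 1 position in a complex. The balance within 18 pairs of related genes was therefore compared as the log2 ratio of their counts within each library. Such a ratio needs no scaling between libraries. In 13 pairs the KO ratios did not overlap the WT ratios, 3 higher and 10 lower, and in 5 they overlapped. Among single genes, 66.4% of those tested had groups that did not overlap, so nothing is read from the number of pairs. With 3 libraries per group, the exact permutation test, two-sided, cannot go below p = 0.1, and the lowest p adjusted over the 18 pairs was 0.138, so no pair could pass the threshold. SMARCA4 over SMARCA2 shifted most, by -6.62. The ratio of PCGF3 to PCGF5 was 4.64, 4.81 and 4.43 in the WT libraries and 3.48, 3.73 and 3.62 in the KO libraries, a shift of -1.02, the second in size.

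In PRC2, the ratio of EZH2 to EZH1 was 0.96, 1.22 and 1.13 in WT and 0.55, 0.52 and 0.42 in KO, a shift of -0.61. Per length of the reference transcripts, EZH1 made up 21.1% ± 1.55 of both in WT and 28.9% ± 0.961 in KO (SD, n = 3 each), so EZH2 remained the more abundant of the pair. MTF2 over PHF19 shifted by -0.65 and RBBP4 over RBBP7 by -0.09. In canonical PRC1 the readers CBX2 and CBX8 came closer to each other, with a ratio of 0.70, 1.20 and 1.04 in WT and 0.30, 0.39 and 0.20 in KO, and CBX8 made up 38.5% ± 4.16 of their per-length level in WT and 50.1% ± 1.64 in KO (SD, n = 3 each). CBX6 over CBX7 shifted by 0.57, BMI1 over PCGF2 by 0.36 and PHC2 over PHC1 by 0.22.

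In SWI/SNF, the ratio of ARID1A to ARID1B was 2.42, 2.56 and 2.53 in WT and 2.06, 1.95 and 1.95 in KO, a shift of -0.52. The shift was -0.59 for ARID1A over ARID2, -0.39 for SMARCD1 over SMARCD3 and -0.16 for SMARCC1 over SMARCC2. The ratios overlapped between the groups for RNF2 and RING1, KMT2A and KMT2B, KMT2C and KMT2D, SETD1A and SETD1B, and KDM6A and KDM6B.

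**Figure D5:**
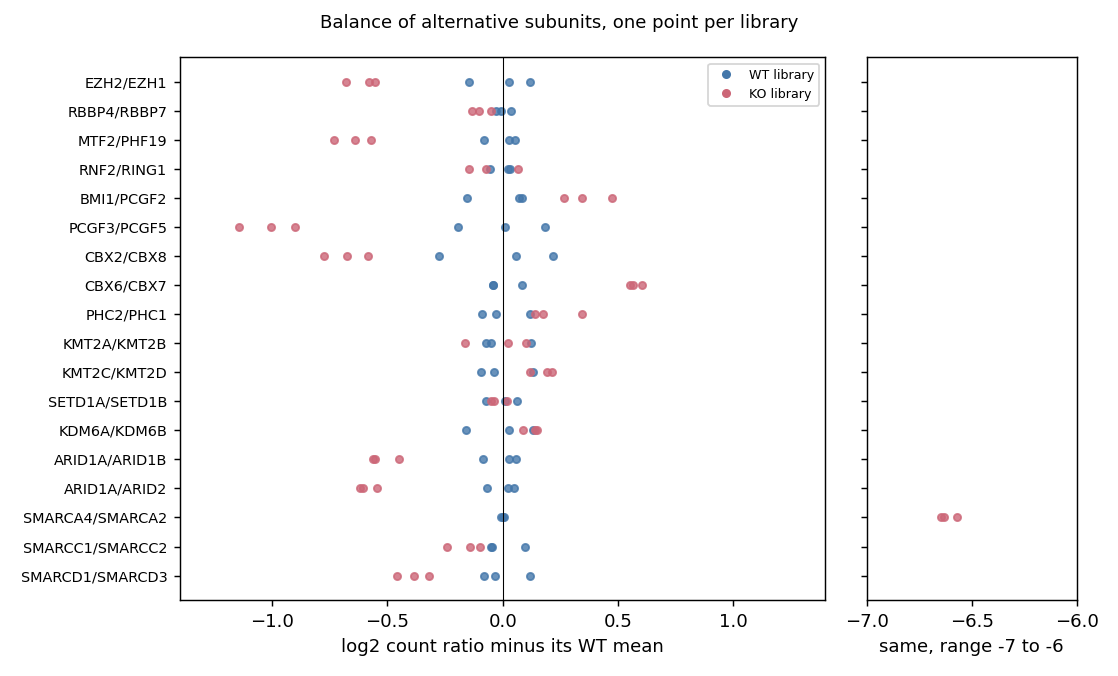
Log2 ratio of the counts of 2 related genes for the 18 pairs, minus the mean of the WT libraries, with 1 point per library and WT and KO in separate colours. The KO points of SMARCA4 over SMARCA2 are drawn in the right panel, whose axis runs from -7 to -6. The ratio of SMARCA4 to SMARCA2 differs by -6.62 between the groups, and the groups overlap in 5 pairs.

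A further 57 genes of the same complexes, written from general knowledge, were read from the same fit. Of these, 53 were tested, 12 were higher, 18 were lower and 23 were not called in edgeR's quasi-likelihood test, 56.6% called against 63.9% of all tested genes, with a median log2 fold change of -0.06. Past both thresholds, 3 were down-regulated (background 7.73%) and 1 was up-regulated (background 8.3%). ASXL3, a paralog of the BAP1 cofactor ASXL1, was at 22.4, 24.1 and 22.7 CPM in WT and 0.61, 0.557 and 0.393 CPM in KO. It fell 42.9-fold, to near the floor (log2 fold change -5.42, SE 0.143, edgeR adjusted p = 1.06e-25). PHF10, a PHD finger subunit of PBAF, was at 79.8, 81.6 and 81.3 CPM in WT and 16.6, 14.9 and 16.5 CPM in KO, 5.07-fold lower (log2 fold change -2.34, SE 0.0619, edgeR adjusted p = 1.10e-25). PBAF thus held both a gene that rose, ARID2, and a gene that fell past the fold threshold.

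PAGR1, a small subunit of the KMT2C and KMT2D complexes, was at 16.3, 15.8 and 20.5 CPM in WT and 5.49, 7.10 and 6.35 CPM in KO, 2.70-fold lower (log2 fold change -1.43, SE 0.107, edgeR adjusted p = 2.09e-13). PAXIP1, which binds PAGR1, had a log2 fold change of -0.49 (edgeR adjusted p = 1.35e-08) and was named after its value was seen. BCL11B, a zinc finger protein that associates with SWI/SNF, had 2, 1 and 0 counts in WT and 26, 33 and 19 counts in KO, and no fold is given because the WT counts were at or under the floor. Of the other SWI/SNF genes, 7 of the 15 tested were lower (background 32.0%) and BCL11B alone was higher (background 31.9%). In the remaining groups, 6 of 18 tested PRC1 and PRC2 partners were higher and 4 lower. Of 12 partners of the methyltransferases 2 were higher and 4 lower, and of 8 partners in PR-DUB 3 were higher and 3 lower. Over all tested genes, 31.9% were higher and 32.0% were lower.

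The members are spread over most chromosomes, and members on the same chromosome did not all move alike. On chromosome 17, 2 of 8 members were higher and 5 lower, and on chromosome 12, 3 of 7 were higher and 2 lower. The medians of these chromosomes were -0.04 and -0.07. Over all tested genes 31.9% were higher and 32.0% were lower, so nothing is read from these counts. Across the 49 members, Spearman's rho between the log2 fold change and the median of the 10 neighbours was 0.41, and with the median of the chromosome it was 0.17. These are descriptions across genes, which are not independent replicates, and neighbouring members share their neighbours. The part of position in these differences was not tested. For the 7 members that changed by more than 0.5 on the log2 scale, the median of the 10 neighbours was 0.18 for SMARCA2, 0.24 for PCGF5, 0.07 for BMI1 and 0.47 for ARID2, which were higher, and -0.10 for EZH2, -0.34 for MTF2 and 0.04 for SMARCB1, which were lower. The neighbours of ARID2 thus came close to its own value of 0.54, as did those of EED to its value, and the median for AEBP2 was below its own.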

How the data were processed

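RNA-seq of A2780 WT and A2780 CDK12 KO cells was available as 1 table of raw counts. Per the labels and the study's methods, stranded single-end reads were checked with FastQC, aligned with STAR to GRCh38 and counted per gene with HTSeq; versions, the annotation release and the strand setting are not given in the sources used here. The authors deposited whole-number counts without normalization. In R 4.3.3, edgeR 4.0.16 kept genes by filterByExpr (minimum count 10, minimum total 15), scaled libraries by TMM and compared KO with WT by its quasi-likelihood test, two-sided, with Benjamini-Hochberg adjustment over 16198 genes. CPM used TMM-scaled totals, pair ratios a pseudocount of 1, and per-length levels the reference (Ensembl canonical) transcript of GENCODE 44, to which 56321 of the listed identifiers were matched without version. Replicates are numbered in accession order within each genotype. The scripts were tested on simulated data. Alternatives were voom/limma (limma 3.58.1), the study's tool, DESeq2 1.42.0, other scalings, filters and pseudocounts, and each library left out. Members and gene lists were chosen with earlier results of these data known. By the rule for named genes, members past both thresholds, the 10 largest increases and 10 largest decreases without overlap and both genes of each pair are given with every library, other genes of the complexes past both thresholds, and CDK12. Python 3.11.15 with scipy 1.17.1 was used for the rest.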

Additional observations from a re-analysis of the deposited data

How the results depend on the processing

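Over the 12 alternatives, 37 of the 49 members kept their call wherever they were tested, 9 lost it in at least 1 (CBX6, KDM6B, KMT2B, KMT2D, PBRM1, PCGF1, RBBP7, SMARCA4 and SMARCC2), 3 were called in 1 alternative only (EZH1, KMT2A and SETD1A) and 0 called members reversed. With each library left out, the number of members higher in KO ranged from 11 to 17 and the number lower from 17 to 20. Over all tested genes in these fits, 4777 to 4974 were higher and 4901 to 5109 were lower. The 11 came without WT replicate 1, where 4959 of 16507 tested genes were higher, against 5165 of 16198 with all libraries. The log2 fold change of SMARCA2 stayed between 6.53 and 6.60. With a filter of at least 10 counts in every library, the members up-regulated past both thresholds went from 1 to 0 and the other genes of the complexes from 1 to 0, because SMARCA2 and BCL11B were no longer tested. Among the ratios that overlapped, the shift of KMT2A over KMT2B lay between -0.0721 and 0.0601 with each library left out and changed sign to 0.0455 without WT replicate 2 and 0.0601 without KO replicate 2, and that of SETD1A over SETD1B lay between -0.0590 and 0.00690 and changed sign without WT replicate 2. No paired analysis was possible because the labels give no replicate number shared between WT and KO libraries. Depth limits PCGF5 and the WT level of SMARCA2, which have few counts.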

Other observations

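Longer members tended to have higher log2 fold changes: across the 49 genes, Spearman's rho with the length of the reference transcript was 0.41, against -0.03 over 15989 tested genes with a known length. The members run from 907 to 20635 bases, with the methyltransferase genes among the longest, so length and membership in a complex cannot be told apart here. Leaving out each library in turn, an alternative chosen after seeing the data, gave a rho between 0.36 and 0.47 among the members. WT replicate 1 was the lowest WT library in 26 of the 49 members and in 8 of the 12 with the longest reference transcripts. The share over all tested genes is not given here, so nothing is read from these counts. Without WT replicate 1 the rho was 0.36 among the members and -0.07 over all tested genes. With the span of the gene in place of the transcript, rho was 0.15, and with the mean level it was 0.14. These are descriptions across genes, which share the same 6 libraries.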
